A study of Mus musculus with 2 samples.

Results

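The receptors examined here were 46 genes for the G protein-coupled receptors of serotonin, dopamine, noradrenaline, acetylcholine, histamine, endocannabinoids, opioids, neuropeptide Y, somatostatin and adenosine, together with nicotinic and serotonin receptor channels. They were taken by name, but the list was chosen with earlier results of these data known. All 46 had a row among the 47643 genes counted in both libraries. A further 27 receptor genes of the same transmitters are not among the 46. Of the 46, 40 encode G protein-coupled receptors and 6 encode channel subunits. Cortical progenitors were obtained from the cortex of wild-type E14 mouse embryos, which the labels give as male, and were electroporated with siRNAs against Phf6 (siPhf6) or with a non-targeting control siRNA (siCtl). PHF6 is a chromatin protein whose gene is X-linked. After 5 days in culture the polyadenylated RNA was sequenced, and 1 library per group was analysed, so that no replicate check was possible and every difference given is between these 2 libraries, not between the conditions. The study's methods describe several independent samples per group, and how these relate to the single library of each group was not given.

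A G protein-coupled receptor passes the binding of its ligand to a G protein inside the cell. Receptors that use Gi/o lower cyclic AMP and open or close ion channels, those that use Gs raise cyclic AMP, and those that use Gq/11 release calcium through phospholipase C. Nicotinic receptors and the serotonin 3 receptor are instead ligand-gated cation channels. In the developing cortex the ligands reach progenitors and young neurons from afferent fibres, from local cells and from the extracellular fluid, and the receptors are known for roles in proliferation, migration and excitability.

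The sequence just upstream of a receptor gene is shown for 3 serotonin receptors that the results turn on. Htr1a and Htr1b are the closely related serotonin receptors that differed in opposite directions, and Htr2c had the highest ratio of any receptor with more than 3 reads. Each stretch covers 250 to 71 bases before the RefSeq start, 180 bases read 5′ to 3′ on the gene's strand in GRCm38.p6, and no base of it lies in an exon of the GENCODE M21 annotation. The stretches were chr13:105443443-105443622 on the plus strand for Htr1a, chr9:81633903-81634082 on the minus strand for Htr1b and chrX:146962263-146962442 on the plus strand for Htr2c. Capitals mark GGGCGG, the core of a GC box, which was found only in that of Htr1a among these 3.
Htr1a: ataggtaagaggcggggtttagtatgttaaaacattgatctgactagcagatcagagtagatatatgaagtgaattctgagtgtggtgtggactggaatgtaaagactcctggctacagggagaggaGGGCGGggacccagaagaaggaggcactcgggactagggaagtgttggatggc
Htr1b: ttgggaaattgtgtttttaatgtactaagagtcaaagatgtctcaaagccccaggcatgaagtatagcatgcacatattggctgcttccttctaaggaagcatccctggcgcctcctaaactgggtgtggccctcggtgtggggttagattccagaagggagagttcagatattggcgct
Htr2c: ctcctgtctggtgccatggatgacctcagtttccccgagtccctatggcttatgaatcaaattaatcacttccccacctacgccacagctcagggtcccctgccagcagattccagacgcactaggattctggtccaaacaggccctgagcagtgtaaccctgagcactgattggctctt

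RefSeq stretches of this kind were at hand for 38 of the 46 receptors, in 55 stretches, of which some overlap each other and some lie in annotated exons. GGGCGG, searched on both strands, was present in 19 of the 55 stretches (34.5%), against 21.1% of 32851 stretches of all genes. CACACACA, a short run of the CA dinucleotide that the study names at PHF6 sites, was present on either strand in 3 of 55 (5.46%), against 2.72% of all, and these 3 belonged to Chrm5 and Oprl1. TATAAA was present on either strand in 1 of 55 (1.82%), that of Oprl1, against 8.37% of all. These are matches of letters in a window, not binding sites.

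The siCtl library held 12155311 reads in genes and the siPhf6 library 10561757, and levels are given as reads per 1000000 of these gene reads (RPM). Phf6 itself had 1420 reads in the control and 310 after knockdown (log2 -1.99, 95% interval -2.17 to -1.81), which was 25.2% of the siCtl level. Both libraries were rich in markers of postmitotic neurons, whose 12 listed genes summed to 4096 and 4154 RPM, against 599 and 784 RPM for 11 radial glia genes, so the label of cortical progenitors covers cultures in which neuronal transcripts were abundant. The summed RPM was higher in siPhf6 for markers of dividing cells (64.1 and 108), astrocytes (431 and 574) and meningeal fibroblasts (21.8 and 45.1), and lower for Cajal-Retzius cells (309 and 172) and glutamatergic neurons (1788 and 1549). These sums can rest on few genes. Reln gave 3459 of 3752 Cajal-Retzius reads in siCtl and 1625 of 1816 in siPhf6. Slc1a2 gave 2947 of 5241 and 3846 of 6066 astrocyte reads. Some members went against their list's sum, among them Ebf3 (42 and 53 reads), Gfap (405 and 319), Pcna (255 and 178) and Slc17a7 (1226 and 1402). Microglia markers summed to 4.94 and 6.25 RPM with C1qa and C1qb at 0, and choroid plexus markers to 0.41 and 0.95 RPM. The part of these differences in any receptor result was not tested. In bulk RNA, fewer cells of a type and less RNA per cell cannot be told apart.

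Of the receptors with at least 10 reads in one library, 8 were past 1.5-fold higher in siPhf6 and 6 were past it lower. Over all genes the share past it higher was 4.18% at 150 reads or more and 20.0% at 10 to under 150. The shares past it lower were 3.23% and 14.3%, so the receptors are counted by depth below. A log2 ratio is siPhf6 to siCtl in RPM after 1 read was added to each library, and its 95% interval follows from the split of the reads alone and covers counting error only. At least 150 reads in one library were reached by 15 receptors, and 2 of them (13.3%), Htr1b and Adrb1, were past 1.5-fold higher in siPhf6, against 4.18% of the 10130 genes at that depth. Only Htr1a (6.67%) was past 1.5-fold lower, against 3.23% of those genes, and the other 12 lay within the fold. With 15 genes, 1 or 2 members set these shares. The interval lay above 0 in 4 of the 15, below 0 in 6 and included 0 in 5, whereas it excluded 0 in 52.6% of all genes at that depth. The median log2 ratio of the 15 was -0.04, beside 0.01 over all such genes, of which the 5th to 95th percentiles were -0.50 to 0.53.

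The other 31 receptors had under 150 reads in both libraries. Of the 22 with 10 to under 150 reads, 6 (27.3%) were past 1.5-fold higher, against 20.0% of 6090 genes at the same depth: Htr2a, Htr2c, Htr6, Drd1, Adra1d and Sstr3. A further 5 (22.7%) were past it lower, against 14.3%: Htr3a, Htr5a, Hrh2, Hrh3 and Oprd1. At this depth the fold alone is often passed through counting error, and the interval excluded 0 in 8 upwards (Htr2a, Htr2c, Htr6, Htr7, Drd1, Adra1b, Sstr1 and Sstr3) and in 2 downwards (Htr5a and Hrh2). Over all genes of this depth the interval lay above 0 in 13.7% and below 0 in 7.57%. The last 9 receptors had under 10 reads in both libraries, and 6 of these had 3 or fewer in each, which gives no ratio.

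**Figure D1:**
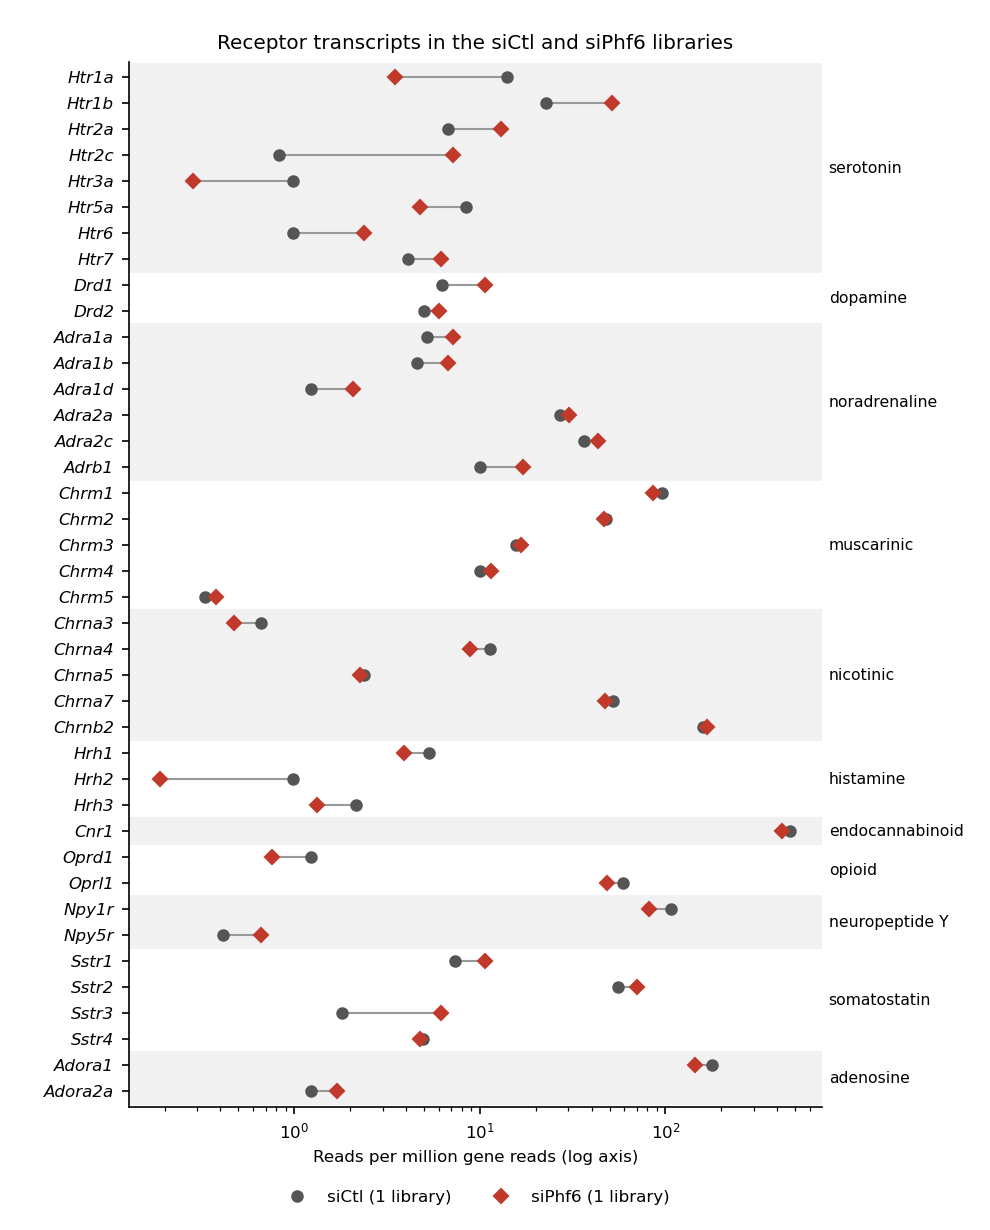
Reads per 1000000 gene reads (log axis) of the 40 receptors with more than 3 reads in at least one library, with siCtl as circles and siPhf6 as diamonds, grouped by transmitter. The pairs lie close together for the muscarinic and nicotinic receptors and far apart for Htr1a, Htr1b and Htr2c. They also lie far apart for Hrh2, Sstr3, Htr3a and Htr6, which had few reads.

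Per kilobase of annotated exon and per 1000000 gene reads (RPKM), which allows genes to be compared with each other, Cnr1 stood highest in both libraries at 73.0 in siCtl and 65.7 in siPhf6. Cnr1, the receptor of endocannabinoids and of the active compound of cannabis, held 32.5% of all receptor reads in siCtl and 30.2% in siPhf6. In siCtl it was followed by Adora1 at 30.9, Npy1r at 30.8, Sstr2 at 25.8 and Chrnb2 at 19.1 RPKM, of which Adora1 and Npy1r did not differ beyond their counting intervals. In siPhf6 Sstr2 was next to Cnr1 at 32.7 RPKM, above Adora1 at 25.1 and Npy1r at 23.7, with intervals of Adora1 and Npy1r that again overlapped. Htr1b moved from rank 13 at 4.81 RPKM to rank 9 at 10.9, where its interval overlapped those of Adra2c at 12.6 and Chrna7 at 10.4. Htr1a moved from rank 16 at 3.14 RPKM to rank 30 at 0.78.

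**Figure D2:**
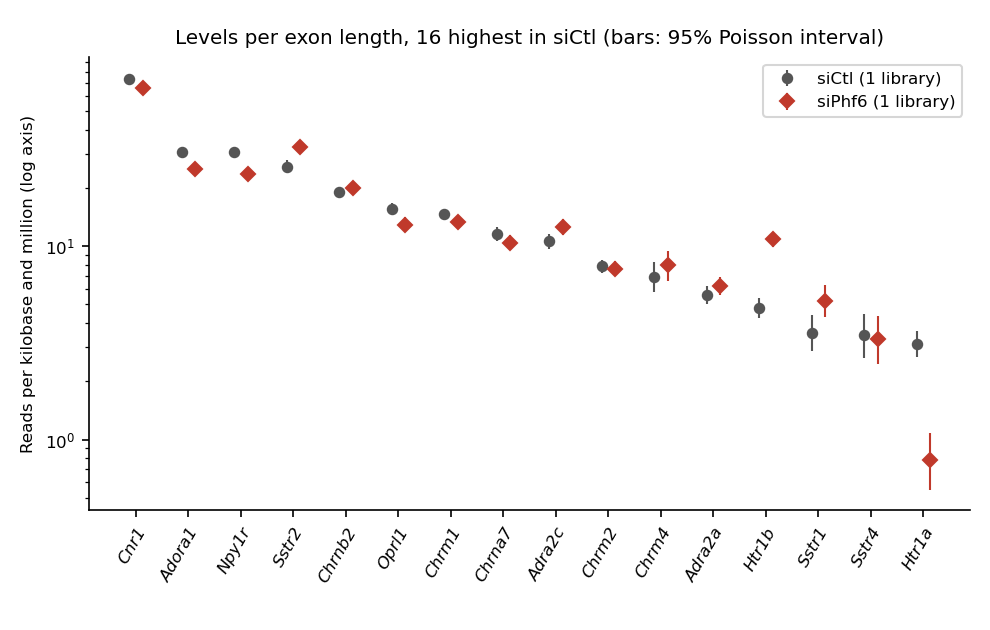
RPKM (log axis) of the 16 receptors highest in siCtl, with 95% Poisson intervals for counting error, siCtl as circles and siPhf6 as diamonds. The order is much alike in both libraries, apart from Htr1b, which lies higher in siPhf6 (10.9 against 4.81), and Htr1a, which lies lower (0.78 against 3.14).

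The serotonin receptors differed in both directions. Htr1a, a Gi/o-coupled receptor that acts as autoreceptor on serotonin neurons and is also found on cortical neurons, had 171 reads in siCtl and 37 in siPhf6. Its log2 ratio was -1.98 (-2.56 to -1.49), which is 25.4% of the siCtl level. Htr1b, a Gi/o-coupled receptor of axon terminals, had 276 reads in siCtl and 542 in siPhf6, 2.26-fold higher with a log2 ratio of 1.17 (0.96 to 1.39). Read as a pair, which does not depend on how the libraries were scaled, Htr1a made up 38.3% of the reads of Htr1a and Htr1b in siCtl (exact Clopper-Pearson interval 33.7 to 42.9%) and 6.39% in siPhf6 (4.54 to 8.70%). The intervals of this share did not overlap, but the share rests on the same reads as the ratios above and is not separate evidence. Both genes are compact, Htr1a at chr13:105443639-105448122 and Htr1b at chr9:81628291-81633828. Htr1b shares 852 bases, 18.0% of its exon length, with the antisense gene D430036J16Rik, which had 16 and 47 reads. In an unstranded library, reads in shared bases cannot be told apart, and ambiguous reads were left out of the counts.

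Htr2a and Htr2c, serotonin 2 receptors that act through Gq/11, had more reads in siPhf6 than in siCtl. Htr2a, the receptor through which hallucinogens act, had 82 and 138 reads (log2 0.95, 0.55 to 1.37). Htr2c, whose transcript is known for RNA editing, had 10 and 76 reads (log2 3.01, 2.17 to 4.25), the largest ratio of any receptor measured above 3 reads, although it rests on 10 reads in siCtl. Summed, these genes had 92 and 214 reads, a log2 ratio of 1.41 (1.06 to 1.79). The remaining serotonin 2 receptor, Htr2b, is not among the 46 and had 11 and 6 reads (log2 -0.57, -2.39 to 0.89).

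Among the remaining serotonin receptors the directions were mixed. Htr5a, a Gi/o-coupled receptor, had 102 and 50 reads (log2 -0.81, -1.34 to -0.32). The Gs-coupled Htr6 had 12 and 25 reads (log2 1.20, 0.22 to 2.39). Htr7, also Gs-coupled, had 50 and 65 reads (log2 0.57, 0.03 to 1.14). These intervals excluded 0, but the bounds nearest to 0 were small for Htr6 and Htr7. Htr3a, the channel subunit found in a class of cortical interneurons, had 12 and 3 reads, with an interval that included 0 (-4.26 to 0.09). Htr1d had 1 read and 0 reads, and Htr4 had 1 and 2. The sum over the 10 serotonin receptors of the 46 was 717 and 938 reads (log2 0.59, 0.45 to 0.73), and without Htr1b it was 0.05. That remainder still held Htr1a, with 171 and 37 reads, so the sum joins large differences in opposite directions.

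The dopamine receptors were low. Drd1, which raises cyclic AMP through Gs, had 76 reads in siCtl and 112 in siPhf6 (log2 0.76, 0.33 to 1.20). Drd2, which acts through Gi/o, had 61 and 64 (log2 0.27, -0.26 to 0.80), so that its difference was not detectable at this depth. Drd5 had 1 read and 0 reads, and 48.6% of its exon length lies under an antisense gene with no reads. The sum of the 3 was 138 and 176 reads, a log2 ratio of 0.55 (0.22 to 0.89).

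The 6 noradrenaline receptors among the 46 all had ratios above 0. Adrb1, the beta-1 receptor that raises cyclic AMP, had 122 and 180 reads and was past 1.5-fold (log2 0.76, 0.42 to 1.11). The alpha-2 receptors, which act through Gi/o, had the most reads of the group: Adra2a had 330 and 319 (log2 0.15, -0.07 to 0.38) and Adra2c had 444 and 459 (log2 0.25, 0.06 to 0.44). Neither was past the fold. The alpha-1 receptors, which act through Gq/11, were read at low depth, with 63 and 76 reads for Adra1a (log2 0.47, -0.03 to 0.98), 56 and 71 for Adra1b (log2 0.54, 0.02 to 1.08) and 15 and 22 for Adra1d (log2 0.73, -0.26 to 1.81). Adra1d overlaps the antisense gene Gm14285, with 0 reads and 1 read. The summed log2 ratio of the 6 was 0.33 (0.21 to 0.46), from 1030 and 1127 reads.

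Of the 10 acetylcholine receptor genes among the 46, 5 had at least 150 reads in one library, and none of the 10 was past 1.5-fold. Of the muscarinic receptors, Chrm1 (Gq/11) had 1161 and 910 reads (log2 -0.15, -0.28 to -0.02) and Chrm2 (Gi/o) had 579 and 490 (log2 -0.04, -0.21 to 0.14). Chrm3 (Gq/11) had 190 and 176 reads (log2 0.09, -0.21 to 0.40). Chrm4 (Gi/o) had 122 and 121 reads (log2 0.19, -0.18 to 0.57), and Chrm5 had 4 in each. For Chrm2 the counting interval leaves room for no more than a small difference between these 2 libraries, and does not cover variation between cultures. Short parts of Chrm1 and Chrm2 lie opposite Gm22820, with no reads, and 9330158H04Rik, with 29 and 33. The muscarinic sum had a log2 ratio of -0.07 (-0.16 to 0.02).

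Among nicotinic subunits, Chrnb2, the beta subunit of the main heteromeric receptor of the brain, had 1948 and 1776 reads (log2 0.07, -0.02 to 0.16). Its exons share 16.3% of their length with Adar on the opposite strand, which had 3854 and 3166 reads. Chrna7, which forms homomeric receptors with high calcium permeability, had 634 and 496 reads (log2 -0.15, -0.32 to 0.02). Chrna4, the partner of Chrnb2, had 138 and 94 reads (log2 -0.35, -0.75 to 0.04). The intervals of all 3 included 0. Chrna5 had 29 and 24 reads and Chrna3 had 8 and 5. The summed reads, 2757 and 2395, gave a log2 ratio of -0.00 (-0.08 to 0.08).

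The 3 histamine receptors among the 46 had ratios below 0 at low depth. Hrh1 (Gq/11) had 65 reads in siCtl and 41 in siPhf6 (log2 -0.45, -1.06 to 0.12), Hrh2 (Gs) had 12 and 2 (log2 -1.91, -5.58 to -0.21), and Hrh3, a presynaptic Gi/o receptor, had 26 and 14 (log2 -0.65, -1.74 to 0.30). The interval excluded 0 for Hrh2 alone, a gene whose difference amounts to a few reads. Summed over 103 and 57 reads, the log2 ratio was -0.64 (-1.14 to -0.17). Hrh2 and Hrh3 overlap antisense genes that had no reads. Hrh4, not among the 46, had 2 and 4 reads.

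Of the abundant Gi/o-coupled receptors, Cnr1, Npy1r, Adora1 and Oprl1 had small ratios below 0 with narrow intervals, whereas the intervals of Sstr2 and Adra2c lay above 0. Cnr1 had 5716 and 4470 reads (log2 -0.15, -0.21 to -0.10). Npy1r, a receptor of neuropeptide Y, had 1295 and 863 reads (log2 -0.38, -0.51 to -0.26). Adora1, the inhibitory adenosine receptor blocked by caffeine, had 2174 and 1532 (log2 -0.30, -0.40 to -0.21). Oprl1, the nociceptin receptor of the opioid family, had 714 and 513 reads (log2 -0.27, -0.44 to -0.11). None was past 1.5-fold. The sums of the neuropeptide Y and adenosine receptors, with log2 ratios of -0.38 and -0.30, rested on Npy1r and Adora1. Without them the ratios were 0.52 and 0.45, from too few reads to give a direction. What remained was Npy2r with 2 reads in each library, Npy5r with 5 and 7, and Adora2a with 15 and 18. Adora1 shares 20.1% of its exon length with Mybph on the opposite strand, which had 6 and 14 reads.

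The classical opioid receptors were barely read. Oprd1, the delta receptor, had 15 and 8 reads (log2 -0.63, -2.15 to 0.62). Oprk1, the kappa receptor, had 2 reads and 1 read, and Oprm1, the mu receptor on which morphine acts, had 0 and 2. The remaining neuropeptide Y receptors were as low, with 2 reads in each library for Npy2r and 5 and 7 for Npy5r. Adora2a, the Gs-coupled adenosine receptor, had 15 and 18 reads (log2 0.45, -0.61 to 1.56). No difference was detectable for these genes at this depth. Oprm1 shares 1.2% of its exon length with Ipcef1 on the opposite strand, which had 56 and 71 reads.

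Somatostatin receptors, which act through Gi/o, were the only peptide receptors whose sum was higher in siPhf6, with 844 and 968 reads (log2 0.40, 0.27 to 0.54). Sstr2 had 673 and 740 reads (log2 0.34, 0.19 to 0.49). Sstr3, a receptor of neuronal primary cilia, had 22 and 65 (log2 1.72, 1.05 to 2.53). Sstr1 had 89 and 113 (log2 0.54, 0.13 to 0.96) and Sstr4 had 60 and 50 (log2 -0.06, -0.63 to 0.51). Sstr2 was within the fold and held most of the reads. Set against Sstr2, Sstr3 made up 3.17% of the reads of both genes in siCtl (1.99 to 4.75%) and 8.07% in siPhf6 (6.29 to 10.2%), intervals that did not overlap. This share again uses the same reads as the ratios. Shares were also taken for Chrm1 with Chrm2 and for Drd1 with Drd2, and there the intervals overlapped. That of Chrm1 was 64.5 to 68.9% in siCtl and 62.4 to 67.5% in siPhf6. That of Drd1 was 46.7 to 63.96% in siCtl and 56.1 to 70.7% in siPhf6.

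**Figure D3:**
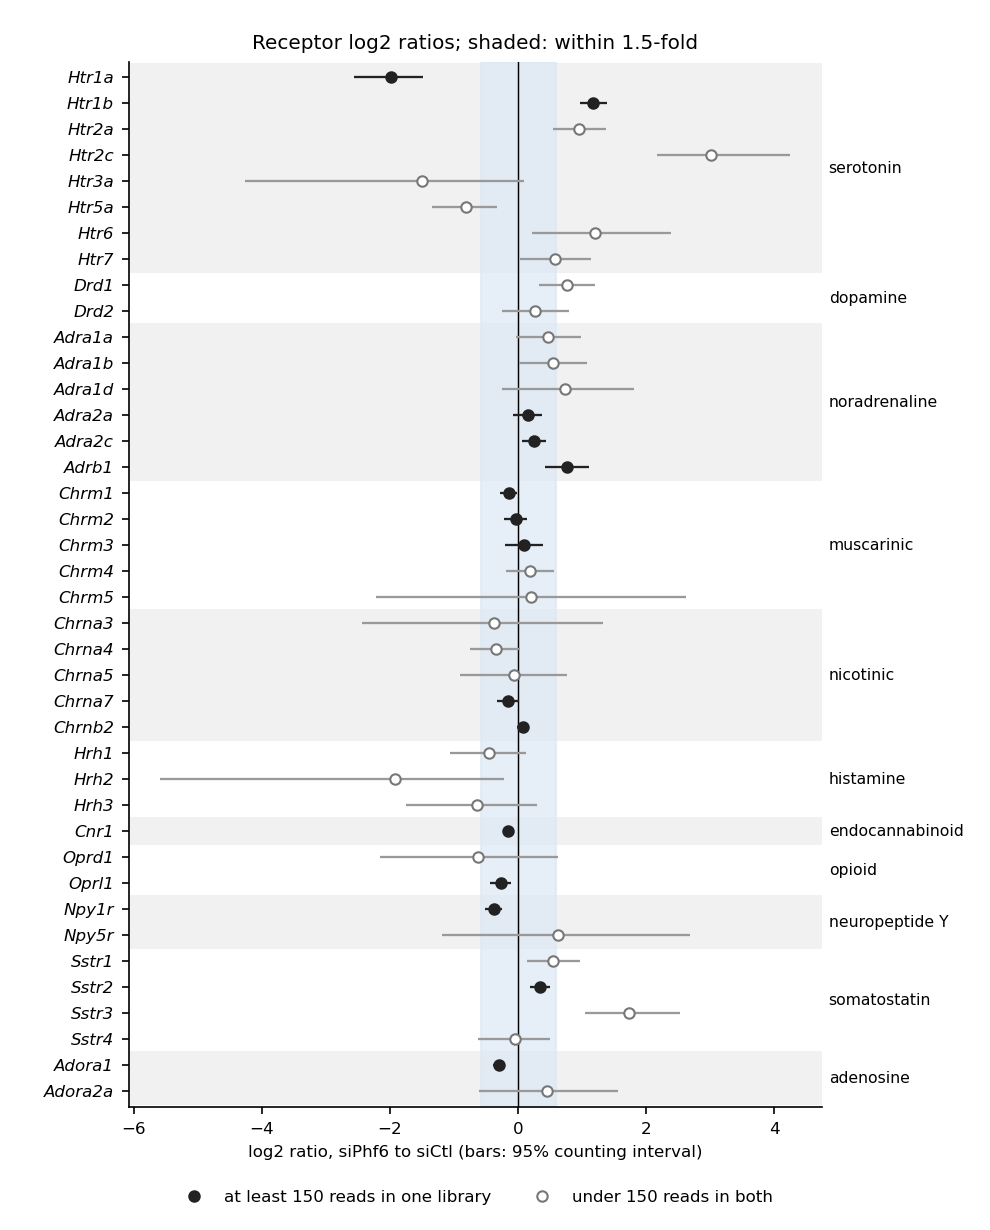
Log2 ratio of siPhf6 to siCtl for the 40 receptors with more than 3 reads in at least one library, with 95% counting intervals, filled points for receptors with at least 150 reads in one library and open points for the rest, and the range within 1.5-fold shaded. Htr1a (-1.98), Htr1b (1.17) and Adrb1 (0.76) are the filled points outside the shading.

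**Figure D4:**
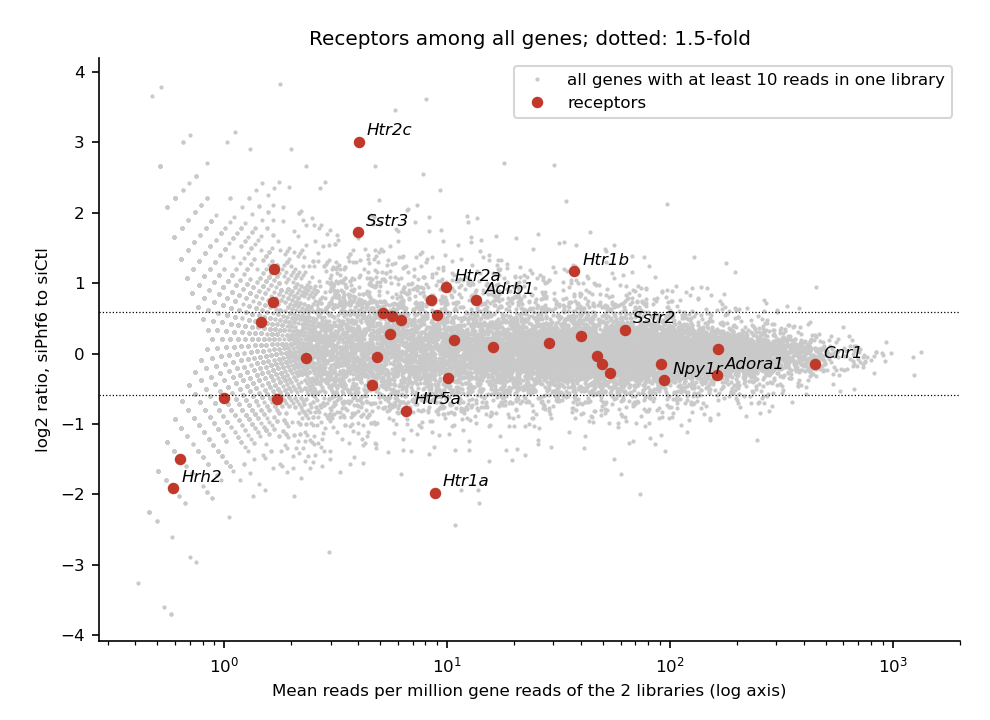
Log2 ratio against the mean reads per 1000000 of both libraries (log axis) for all genes with at least 10 reads in one library (grey) and for the receptors among them (red), with dotted lines at 1.5-fold. The grey cloud widens towards low levels, where Htr2c (3.01) and Sstr3 (1.72) lie, whereas Htr1b (1.17) lies where most genes stay within the lines.

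Summed by coupling, the Gs receptors had 289 and 404 reads and a log2 ratio of 0.68 (0.46 to 0.91), with 5 above 0 of the 6 members that had more than 3 reads in a library. The Gi/o receptors had 12879 and 10462 reads (log2 -0.10, -0.13 to -0.06), with 9 above 0 and 10 below of the 19 such members. The Gq/11 receptors had 1646 and 1514 reads (log2 0.08, -0.02 to 0.18), and the channel subunits 2769 and 2398 (log2 -0.00, -0.08 to 0.07). Some sums follow their member with most reads: without Chrm1 the Gq/11 sum was 0.52, whereas without Adrb1 the Gs sum was still 0.62. All 46 receptors together had 17583 and 14778 reads (log2 -0.05, -0.08 to -0.02), and without Cnr1 the log2 ratio was -0.00 (-0.04 to 0.04). Of the 40 with more than 3 reads in a library, 22 had a ratio above 0 and 18 below, with a median of 0.12. The median over all genes was 0.01 at 150 reads or more and 0.07 at 10 to under 150. The share of all genes above 0 was not taken, so these counts of signs have no background.

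**Figure D5:**
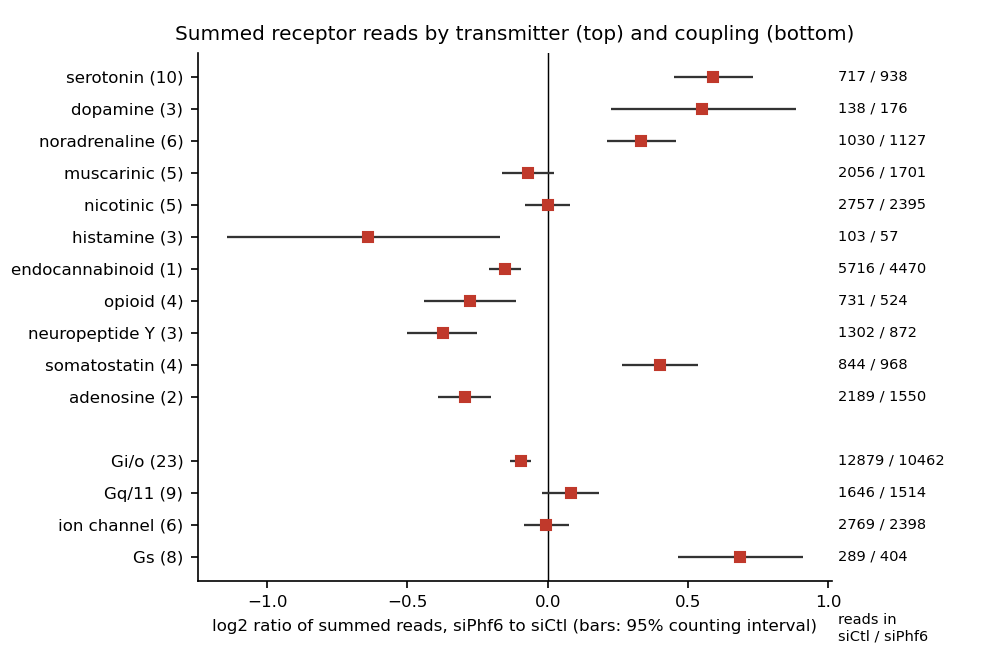
Log2 ratio of summed reads, siPhf6 to siCtl, by transmitter (upper rows) and by coupling (lower rows), with 95% counting intervals, the number of receptors in parentheses and the summed reads at the right. Serotonin (0.59), dopamine (0.55), somatostatin (0.40) and noradrenaline (0.33) lie above 0, histamine (-0.64), neuropeptide Y (-0.38), adenosine (-0.30) and opioid (-0.28) below, and Gs (0.68) stands highest among the couplings.

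Of 92 ligands, enzymes, other receptors and signalling partners read at depth, 7 (7.61%) were past 1.5-fold higher in siPhf6, against 4.18% of all genes at that depth, and 1 (1.09%) was past it lower, against 3.23%. Of 27 other receptors of the same transmitters, 23 had under 10 reads in both libraries and 1 was read at depth, Chrna1 of the muscle nicotinic receptor, which was higher in siPhf6 (87 and 155 reads, log2 1.03, 0.65 to 1.43). Of the ligand genes, 4 of 8 were read at depth and 1 was past the fold: Pnoc, the precursor of nociceptin, had 248 and 713 reads (log2 1.72, 1.52 to 1.94), beside the log2 ratio of -0.27 of its receptor Oprl1. Sst had 341 and 349 reads (log2 0.24), Penk had 164 in each (log2 0.20) and Npy had 158 and 134 (log2 -0.03). For acetylcholine, Ache, which breaks down the transmitter, had 225 and 336 reads (log2 0.78, 0.53 to 1.03) and was 1 of 7 genes past the fold, whereas Chat, which makes it, had no reads in either library.

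Of the monoamine genes read at depth none was past the fold. Among them, Slc29a4, a monoamine transporter, had a log2 ratio of -0.35, Maoa 0.33 and Slc18a2 0.26. Of 11 G protein alpha subunits none was past it, with Gnai2 at 0.51, Gnai1 at 0.26, Gnai3 at 0.23 and Gnas at 0.20. The 9 beta and gamma subunits, 3 GIRK channels (potassium channels opened through Gi/o), 5 receptor kinases and arrestins, 6 endocannabinoid genes and 2 adenosine genes read at depth likewise had none past it. Among these, Kcnj6 had a log2 ratio of -0.50, Gnb5 0.36, Dagla -0.26, Adk -0.35 and Arrb1 -0.23. The remaining genes past the fold were 2 of 21 cyclic AMP genes (the calcium-dependent phosphodiesterases Pde1b, log2 0.82, and Pde1a, 0.72), 1 of 6 Gq effectors (Prkca, 0.61) and 2 of 13 RGS proteins, which shorten G protein signals (Rgs17, 1.14, and Rgs12, -0.60). With so few genes in each list, these shares were not read against the background.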

How the data were processed

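The authors mapped the mRNA-seq reads of both libraries with HISAT2 (genome mm10), dropped duplicates through samtools and deposited gene-level read counts from HTSeq with GENCODE M9, which are raw and not normalised; duplicate removal can lower the counts of abundant genes. Rows of reads in no gene (25.3% and 24.1% of the rows' total) or ambiguous (1.99% and 2.04%) were left out. Libraries were grouped by their labels. Counts were scaled to reads per 1000000 gene reads, and per kilobase of GENCODE M21 exons for 47224 of 47643 genes, M21 standing in for M9. Ratios had 1 read added, with Clopper-Pearson intervals at 95% for the read split and Poisson intervals at 95% for levels (counting error only). A gene was called past 1.5-fold with at least 150 reads in one library, the authors' filter. The genes named were all 46 receptors and, from each related list, up to 4 with the largest ratio; the receptors and lists were chosen with earlier results of these data known. With 1 library per group no test was run. Python 3.11.15, pandas 2.3.3 and scipy 1.17.1 were used, with size factors from edgeR 4.0.16 and DESeq2 1.42.0 (R 4.3.3) in alternatives. The functions were tested on simulated data.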

Additional observations from a re-analysis of the deposited data

How the results depend on the processing

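No paired analysis was possible because each group had 1 library, and for the same reason no library could be left out. Of the receptors read at depth, 2 were past the fold higher and 1 lower. With at least 10 reads these counts were 8 and 6. That setting adds the depth of 10 to under 150 reads, where 20.0% of all genes were past the fold higher and 14.3% lower. With at least 150 reads in both libraries together the counts were 4 and 2. With a fold of 2 the higher count was 1, and with a looser fold the lower count was 2. For the filter on both libraries together and for the other folds, the share of all genes past the fold was not taken. The counts at these settings therefore have no background, and whether they differ from those of other genes was not tested. Of the receptors under the filter, 6 were past the fold higher and 5 lower, and with 5 reads added the lower count was 3. After a trend on mean reads was subtracted the counts were 11 and 3. That trend was fitted on genes with at least 150 reads in one library and carried flat to lower depths. It raised the log2 ratios of the receptors under the filter by much the same amount. Genes at 10 to under 150 reads had a median of only 0.07, so the 11 and 3 say little about these receptors. The share of all genes past the fold was likewise not taken with 5 reads added or after the trend was subtracted. The Gi/o sum was -0.15 with DESeq2 size factors. Without the member with the most reads, the log2 ratio was -0.0548 for Gi/o, 0.52 for Gq/11, -0.20 for channels, 0.0247 for muscarinic, -0.18 for nicotinic, 0.45 for adenosine, 0.52 for neuropeptide Y, 0.0478 for serotonin and 0.62 for somatostatin, so that the muscarinic, adenosine and neuropeptide Y sums changed sign. For adenosine and neuropeptide Y the reads that remained were too few to give a direction. Over 7 settings of scaling, trend and added reads, only Chrna5 and Sstr4 changed sign, in 1 setting each. Hrh3 and Oprd1 were past the fold in 5, Npy5r (5 and 7 reads) in 4, and Htr7, Adra1a, Adra1b, Sstr1 and Adora2a in 1. Both sign changes and all passes in 1 setting came from the trend on mean reads, which was not fitted at this depth. The cause of the other shifts was not tested. Counting depth limits the 31 receptors with under 150 reads, and no value bears on variation between cultures.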
